A study of Rattus norvegicus with 24 samples.

Results

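The comparison described here is the effect of breathing cigarette smoke on the rat lung transcriptome, taken across rats that had and had not also inhaled crystalline silica. It sets the 12 smoke-exposed libraries (6 smoke only and 6 smoke plus silica) against the 12 others (6 air and 6 silica only), of 24 in the series, with silica as a second term in the model. The primary run leaves out 3 libraries, silica 1, smoke 1 and smoke 2, and so compares 10 libraries with 11.

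Each library is total RNA, depleted of ribosomal RNA, from a piece of lung of 1 male Fischer 344 rat (F344/DuCrl), bought at 3 months of age and housed 2 to a cage. Air rats breathed air for all 29 weeks. Silica rats breathed Min-U-Sil 5, a respirable crystalline silica dust, at 15 mg/m3 for 6 hours a day on 5 days of week 3, and air otherwise. Smoke rats breathed cigarette smoke for 3 hours on each of a pair of days a week, with air alone in week 3. The smoke was at 40 mg/m3 in week 1 and at 80 mg/m3 from week 4 on. Combined rats had the same smoke schedule, except that week 1 was at 45 mg/m3, and the silica of week 3. Their week 1 dose therefore differed slightly from that of the smoke rats. All exposures took place in whole-body chambers, and housing followed a 12-hour light-dark schedule. Neither the hour of day at which lungs were taken nor the time since the last smoke session is stated in the labels used here. A piece of lung holds many cell types, so fewer cells of a type and less RNA per cell cannot be told apart in any result below.

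Several libraries stood apart. Smoke 2 held 21629 counts, 46.3% of them from haemoglobin genes, and the other 23 libraries held 280484 (silica 4) to 4687805 (air 6). Smoke 1 had 654 CPM of Chia and 45.2 CPM of Lpo, airway genes that lay at 172 to 228 and 0 to 1.49 CPM in smoke 3 to 6 and at 639 to 1007 and 35.6 to 60.5 CPM in silica 2 to 6. Silica 1 had 79.9 and 0 CPM of them, against 82.4 to 129.9 and 0 to 0.207 CPM in air. These 2 libraries thus went against their labels in the genes that separate silica-exposed lungs, and they were left out with their values known. CPM (counts scaled to a library of 1e+06) is adjusted by the trimmed mean of M values (TMM). Air 6, the deepest library, also differed from air 1 to 5 in several genes named below.

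Much of what follows concerns the circadian clock, a transcriptional loop that runs in most cells of the body, lung cells included. The activators CLOCK (or its relative NPAS2) and ARNTL (BMAL1) pair and bind E-box sequences, where they switch on Per, Cry, Nr1d1, Nr1d2 and the PAR bZIP factors Dbp and Tef. PER and CRY proteins then hold the activators down. NR1D1 and NR1D2, the REV-ERB nuclear receptors, repress Arntl, Npas2, Cry1 and Nfil3 through ROR elements, so that these genes peak in the opposite part of the day to Nr1d1 and Dbp. DBP and TEF activate through D-boxes, and NFIL3 represses there. Glucocorticoid hormone, which itself follows a daily rhythm, also regulates genes such as Per1, Fkbp5, Zbtb16 and Tsc22d3.

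Of the 5 called genes shown next, Nr1d1, Per2 and Tef were higher with smoke and Arntl and Hsph1 lower. The 5 were picked because they hold elements that these factors or HSF1, the heat shock factor, are known to bind. Their sequences just before the start sites are printed as context. They are the 250 bases before the start in RefSeq's GRCr8 assembly, whose coordinates are given and which may not be the build the authors used, 5′ to 3′ on the strand of the gene, with matches in capitals. Searched on both strands were the E-box CACGTG, its variant CACGTT, the D-boxes TTATGTAA and TTACGTAA, the ROR element TAGGTCA and the heat shock element pair GAANNTTC, where the E-box and its variant share their first 5 letters. Of 47 called genes 38 had at least 1 window, by gene identifier.
Arntl (chr1:176766078-176766327, plus strand): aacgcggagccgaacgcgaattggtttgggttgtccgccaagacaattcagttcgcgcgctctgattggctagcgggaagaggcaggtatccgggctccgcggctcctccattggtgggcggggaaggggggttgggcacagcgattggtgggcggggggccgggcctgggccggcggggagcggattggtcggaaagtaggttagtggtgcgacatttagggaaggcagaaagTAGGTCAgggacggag
Nr1d1, second start listed (chr10:84229455-84229704, minus strand): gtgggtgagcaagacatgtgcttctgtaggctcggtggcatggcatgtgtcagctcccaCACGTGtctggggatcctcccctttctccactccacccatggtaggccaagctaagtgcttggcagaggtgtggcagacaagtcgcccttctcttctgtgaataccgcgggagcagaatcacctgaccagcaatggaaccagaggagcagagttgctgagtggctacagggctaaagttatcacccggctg
Per2 (chr9:99496994-99497243, minus strand): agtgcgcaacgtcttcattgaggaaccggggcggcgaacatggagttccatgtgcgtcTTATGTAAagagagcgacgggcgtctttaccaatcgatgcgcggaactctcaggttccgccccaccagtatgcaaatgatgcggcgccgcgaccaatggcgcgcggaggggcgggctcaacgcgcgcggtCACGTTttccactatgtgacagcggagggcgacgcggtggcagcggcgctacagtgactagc
Tef (chr7:115206577-115206826, plus strand): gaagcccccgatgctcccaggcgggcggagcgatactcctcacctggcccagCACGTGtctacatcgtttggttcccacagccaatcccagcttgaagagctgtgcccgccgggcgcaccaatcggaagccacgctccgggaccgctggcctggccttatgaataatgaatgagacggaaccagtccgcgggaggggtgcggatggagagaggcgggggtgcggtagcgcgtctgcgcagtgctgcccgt
Hsph1 (chr12:10427118-10427367, plus strand): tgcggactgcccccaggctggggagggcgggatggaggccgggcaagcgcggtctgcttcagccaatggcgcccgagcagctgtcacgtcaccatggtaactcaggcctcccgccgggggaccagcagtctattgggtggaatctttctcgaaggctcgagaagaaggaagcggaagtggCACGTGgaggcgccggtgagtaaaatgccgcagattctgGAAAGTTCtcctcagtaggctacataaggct
Arntl carries the ROR element 16 bases before its start. Per2 carries a D-box 192 bases and the E-box variant 62 bases before its start. Tef and the second Nr1d1 start carry the E-box at 198 and 191 bases, and the first Nr1d1 start the variant at 174 bases. Hsph1 holds an E-box at 70 bases and the heat shock pair at 31 bases. Of all 33469 windows, 5.59% held the E-box, 4.07% its variant, 0.828% and 0.108% the 2 D-boxes, 2.26% the ROR element and 7.23% the heat shock pair. Among the 38 genes these elements were in 3, 2, 1, 0, 2 and 3. The windows of the clock genes Dbp, Per3, Nr1d2, Npas2 and Nfil3 held none of them. The other gene with a ROR element was Chia, which was higher with smoke. A match describes the letters and is no evidence of binding.

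Smoke exposure went with a small set of expression differences in which clock genes led. Of 13666 genes tested with edgeR's quasi-likelihood test, 15 (0.11%) were higher and 32 (0.234%) lower in smoke-exposed lungs at a Benjamini-Hochberg adjusted p under 0.05. Of the 47, 10 were among the 23 tested genes of the 3 clock lists, 6 higher and 4 lower. That is 43.5% of the clock genes, beside 0.344% of all genes. The labels used here give neither the hour at which lungs were taken nor the time since the last smoke session. The part of either in the clock gene differences was not tested. The 3 left-out libraries and all gene lists were chosen with earlier results of these data known. Shares of called list members, here and below, are therefore descriptions and not independent tests. Most differences were modest: 29 of the 32 lower genes and 9 of the 15 higher genes differed less than 2-fold. The libraries with and without smoke did not overlap, in the same direction in both strata, for 13 genes (0.0951% of those tested), 12 of them called. For 7 genes (0.0512%) the 10 smoke libraries did not overlap the 11 others at all, and these were Nr1d1, Nr1d2, Per3, Dbp, Arntl, Zbtb16 and Eci2. Without air 6 the same model called 42 genes higher and 80 lower, the 47 among them.

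With all 24 libraries, 35 of 13322 tested genes (0.263%) were higher and 61 (0.458%) lower. Of the 47 genes, 41 were called in that run too, among them 9 of the 10 clock genes. Nfil3 missed the threshold there (edgeR adjusted p 0.148), as did Rn45s, Lpo, Dag1, Adm and Fkbp4, while the clock gene Bhlhe40 passed it (log2 0.47, edgeR adjusted p 0.0241). All 96 had the same sign in the 21 libraries.

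Nr1d1, the REV-ERB alpha receptor, had the largest rise of the called genes apart from Rn45s, which is described below. It read 74.8, 75, 52.5 and 54.5 CPM in smoke 3 to 6, and in combined it had a lowest of 35.4, a median of 45.9 and a highest of 59.5 CPM. Without smoke it read 13, 11.7, 10.7, 22.2 and 21.4 CPM in silica 2 to 6, and in air it had a lowest of 4.65, a median of 9.82 and a highest of 13.5 CPM. Every smoke-exposed library of the 21 was above every other one. The log2 difference was 2.09 ± 0.19 (SE), or 4.25-fold, with an adjusted p of 4.23e-08 in edgeR's test. It was larger without silica (2.71 ± 0.21) than with it (1.43 ± 0.21), an interaction with an unadjusted p of 0.000288 and an adjusted p of 0.134.

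Its paralog Nr1d2, REV-ERB beta, read 140.2, 131, 133 and 139 CPM in smoke 3 to 6, with 105 to 132 CPM (median 122) in combined. It read 58.3, 52.5, 60.6, 73.8 and 62.3 CPM in silica 2 to 6, with 41.7 to 76.1 CPM (median 54.4) in air. The smoke libraries were again all above the others, by 2.16-fold (log2 1.11 ± 0.08, edgeR adjusted p 1.53e-09). The difference was 1.27 ± 0.11 without silica and 0.95 ± 0.11 with it.

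Per3 and Per2 encode period proteins, the slow repressors of the loop. Per3 read 83, 76.2, 71.2 and 56.6 CPM in smoke 3 to 6, with 55.7 to 80.8 CPM (median 60.4) in combined, and 28.3, 26.5, 24.9, 24.4 and 31.1 CPM in silica 2 to 6, with 20.9 to 38.4 CPM (median 28) in air. Its ranges did not overlap, and it was 2.38-fold higher with smoke (log2 1.25 ± 0.10, edgeR adjusted p 8.66e-09). Per2 rose less, 1.56-fold (log2 0.64 ± 0.13, edgeR adjusted p 0.0215), and its libraries overlapped, at 32.9 to 57.2 CPM with smoke and 15.3 to 46.5 CPM without. Leaving out silica 5 or smoke 4 ended its call, with an adjusted p of up to 0.0623. Per1, the third period gene and also a glucocorticoid target, did not pass (-0.03 ± 0.15, adjusted p 0.997), with differences of opposite sign, -0.36 without silica and 0.30 with it.

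Dbp, the D-box activator and a direct output of the clock, was scarce without smoke, at 4.93, 2.47, 3.56, 6.79 and 6.04 CPM in silica 2 to 6 and 3.99 to 7.92 CPM (median 5.81) in air. It read 21.3, 19.7, 15.8 and 19 CPM in smoke 3 to 6 and 19.3 to 30.5 CPM (median 25.1) in combined. The lowest smoke-exposed library thus stood above the highest of the others, although in silica 4 the level was below the 10.7 CPM that 3 counts are worth there. The difference was 3.84-fold (log2 1.94 ± 0.15, edgeR adjusted p 1.53e-09), 1.71 ± 0.20 without silica and 2.22 ± 0.21 with it. Tef, its relative, was more abundant and rose 1.44-fold (log2 0.53 ± 0.07, edgeR adjusted p 7.29e-05). It lay at 69.2 to 102 CPM without smoke and 100.4 to 137 CPM with it. The ranges of Tef did not overlap within either stratum, but did across them.

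The activator Arntl fell. It read 44.5, 45.7, 38.1 and 52 CPM in smoke 3 to 6, with 28.8 to 46.9 CPM (median 34.5) in combined, against 69.5, 76.5, 60.6, 62.1 and 59 CPM in silica 2 to 6 and 58.9 to 82.9 CPM (median 68) in air. All smoke libraries lay below all others, and the fall was 1.67-fold (log2 -0.74 ± 0.09, edgeR adjusted p 6.59e-06). Npas2, which can stand in for CLOCK, fell 1.45-fold (log2 -0.54 ± 0.12, edgeR adjusted p 0.036) but kept its call in only 8 of the 21 fits that left out 1 library, with an adjusted p of up to 0.0854. Its libraries overlapped, at 28 to 50.5 CPM with smoke and 36.2 to 99.8 CPM without. The log2 difference of Npas2 was -0.30 ± 0.16 without silica and -0.78 ± 0.16 with it. Clock itself, an abundant transcript, was at -0.19 ± 0.05 (adjusted p 0.0888) and Rora, an activator at ROR elements, at -0.13 ± 0.05 (adjusted p 0.442), neither past the threshold.

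Cry1 and Nfil3, repressors that peak late in the cycle, also fell. Cry1 was 1.67-fold lower (log2 -0.74 ± 0.14, edgeR adjusted p 0.0113), at 8.49 to 20.6 CPM with smoke and 10.7 to 31.5 CPM without, by -0.72 ± 0.20 in one stratum and -0.75 ± 0.20 in the other. Nfil3 was 1.59-fold lower (log2 -0.67 ± 0.14, edgeR adjusted p 0.0236) and kept its call in 16 of 21 leave-one-out fits. Leaving out silica 3, smoke 3, smoke 4, smoke 6 or combined 5 ended it, with an adjusted p of up to 0.0718. Cry2 (0.36 ± 0.09, adjusted p 0.0721), Bhlhe40 (0.38 ± 0.10, adjusted p 0.0936) and Ciart (-0.26 ± 0.11, adjusted p 0.437), further repressors, did not pass. In all, the activator list had 0 members higher and 2 lower of 5 tested, the repressor list 4 higher and 2 lower of 11, and the output list 2 higher and 0 lower of 7. Their median log2 differences were -0.47, 0.36 and -0.01, beside -0.0012 over all genes tested.

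**Figure D1:**
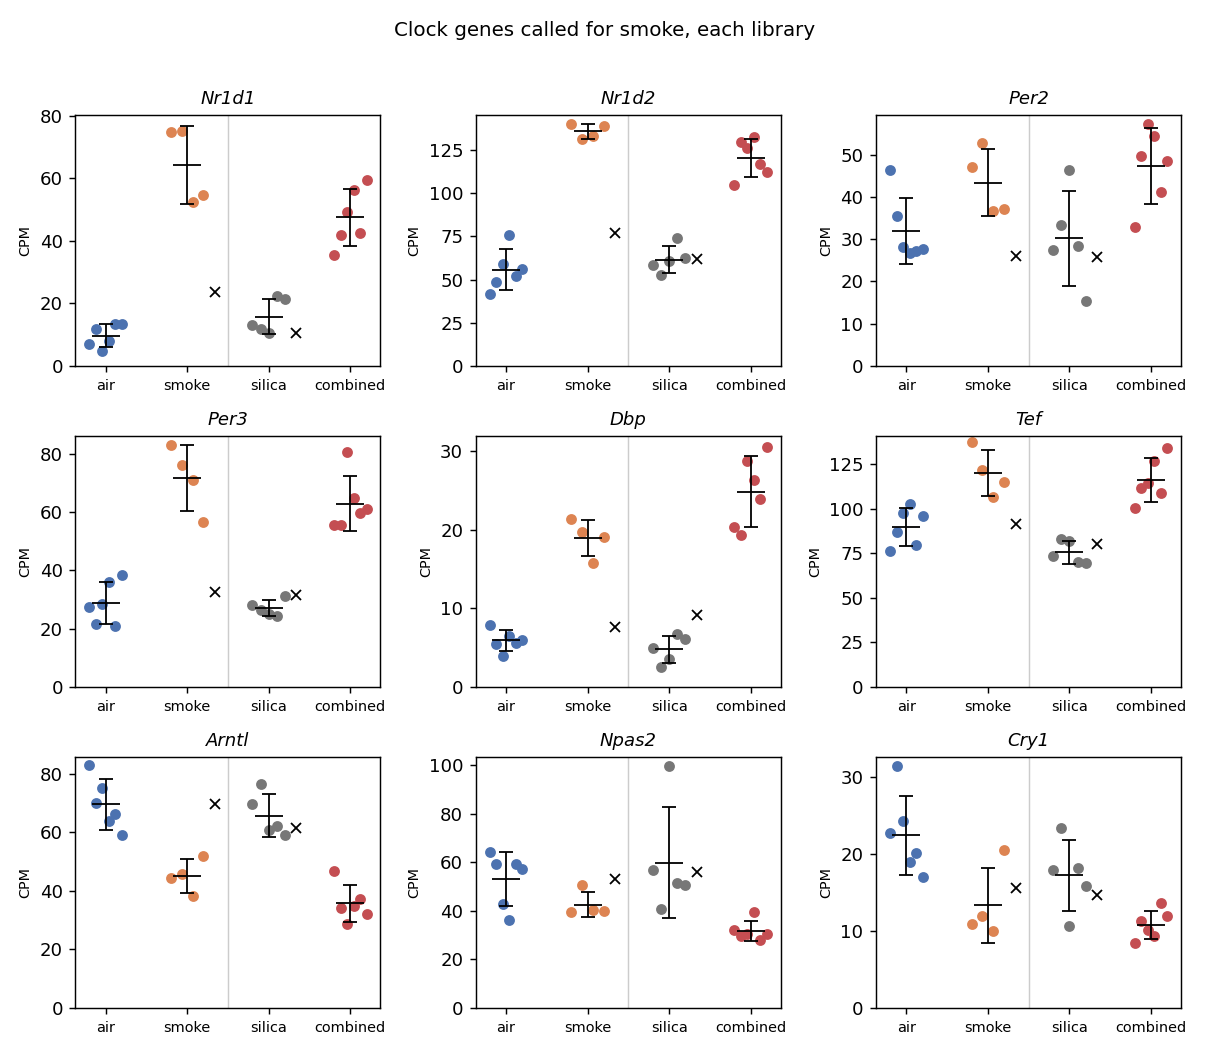
Normalised counts (CPM) of 9 called clock genes in each library of the 21 (circles), with the mean and SD per group as black bars. Crosses are silica 1 and smoke 1, left out of the model, and smoke 2 is not drawn. For Nr1d1, Nr1d2, Per3 and Dbp all smoke and combined circles lie above all air and silica circles, and for Arntl all lie below.

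The left-out smoke 1 did not share the pattern. Its Dbp (7.64 CPM), Per3 (32.6 CPM) and Arntl (69.8 CPM) lay within the ranges of the libraries without smoke. Its Nr1d1 (23.6 CPM) and Nr1d2 (77.1 CPM) were just above the highest of those, 22.2 and 76.1 CPM. Only its Zbtb16 (77.4 CPM) lay within the range of the smoke-exposed libraries among the 7 genes that separate the 10 from the 11. Silica 1 lay within the range without smoke for 6 of these 7, and its Dbp, at 9.18 CPM, was above that range and below every smoke-exposed library. In smoke 2 Nr1d1, Nr1d2, Dbp and Arntl had no counts, where 3 counts would be 139 CPM before the TMM adjustment. With these libraries included the log2 differences were 2.02 for Nr1d1, 1.76 for Dbp, 1.13 for Per3 and -0.65 for Arntl.

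Genes known to be induced by glucocorticoids were lower where they differed. Zbtb16, a zinc finger transcription factor (PLZF) with a strong glucocorticoid response, fell the most of all called genes. It read 68.4, 95.1, 42.4 and 38.6 CPM in smoke 3 to 6, with 29.9 to 87.3 CPM (median 49) in combined, against 100, 195, 110.5, 142 and 135 CPM in silica 2 to 6 and 134 to 254 CPM (median 179.8) in air. The smoke libraries were all below the others, by 2.89-fold (log2 -1.53 ± 0.17, edgeR adjusted p 3.90e-06), and the log2 differences without and with silica were -1.61 ± 0.25 and -1.45 ± 0.24 (interaction, unadjusted p 0.638).

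Tsc22d3, which encodes the glucocorticoid-induced leucine zipper GILZ, fell 1.49-fold (log2 -0.58 ± 0.12, edgeR adjusted p 0.0215). It read 156, 168, 126 and 131 CPM in smoke 3 to 6 against 227 to 362 CPM (median 288) in air, with no overlap, but 143 to 201 CPM (median 163) in combined against 148 to 222 CPM in silica, which did overlap. Its difference was -0.98 ± 0.13 without silica and -0.20 ± 0.13 with it, an interaction with an unadjusted p of 0.000261 and an adjusted p of 0.132. Leaving out any 1 of smoke 3 to 6 ended its call in the additive model, with an adjusted p of up to 0.0785. Cdkn1a, the cell cycle inhibitor p21, fell 1.33-fold (log2 -0.41 ± 0.09, edgeR adjusted p 0.0257), and Sult1a1, a sulfotransferase for phenols, 1.36-fold (log2 -0.44 ± 0.10, edgeR adjusted p 0.0329). Leaving out 1 library ended the call of Cdkn1a for 5 libraries (silica 2, silica 3, smoke 4, smoke 5 and smoke 6) and that of Sult1a1 for 10, with adjusted p of up to 0.0785 and 0.0911. These 4 were the called members of the list, all lower, of 15 tested, beside 0.234% of all genes tested. Of the 15, 14 had a negative sign, beside 50.3% of all genes, with a median of -0.28. Fkbp5 (-0.48 ± 0.12, adjusted p 0.0953), Dusp1 (-0.21 ± 0.20, adjusted p 0.806) and Sgk1 (0.06 ± 0.07, adjusted p 0.85), other well-known targets, did not pass. With all 24 libraries Fkbp5 passed the threshold (log2 -0.48, edgeR adjusted p 0.0423).

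Among heat shock proteins and their helpers the few called genes were lower. Hsph1, the HSP110 exchange factor, fell 1.38-fold (log2 -0.47 ± 0.09, edgeR adjusted p 0.0171), and Fkbp4, an HSP90 partner of steroid receptors, 1.24-fold (log2 -0.31 ± 0.07, edgeR adjusted p 0.0422). They were the 2 called of 23 list members tested, beside 0.344% of all genes tested. Of the 23, 22 had a negative sign, beside 50.3% of all genes, with a median of -0.19. Fkbp4 kept its call in only 4 of 21 leave-one-out fits, with an adjusted p of up to 0.113, while Hsph1 kept it in all 21. Hsph1 was at 83.8 to 124 CPM with smoke and, but for air 6 (81.3 CPM), at 117 to 166 CPM without. A pair of related genes outside the list also fell, namely Ahsa2, an activator of the HSP90 ATPase, by 1.31-fold (log2 -0.39 ± 0.08, edgeR adjusted p 0.0124), and LOC498426, annotated as similar to heat shock protein 8, by 1.68-fold (log2 -0.75 ± 0.14, edgeR adjusted p 0.00738). If LOC498426 shares sequence with Hspa8, reads could be split between them, so its counts are uncertain. Hspa8 itself was at -0.33 ± 0.11 (adjusted p 0.224) and Hsp90ab1 at -0.19 ± 0.08 (adjusted p 0.46). Dnaja1 (-0.32 ± 0.08, adjusted p 0.0888) and Hspb1 (-0.31 ± 0.08, adjusted p 0.104) did not pass either.

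Chia, the acidic chitinase secreted by airway and alveolar epithelium, rose in both strata from very different starting levels. It read 184, 172, 228 and 191 CPM in smoke 3 to 6 against 82.4 to 129.9 CPM (median 119) in air. After silica it read 639, 1007, 695, 899.5 and 934 CPM in silica 2 to 6, and in combined it had a lowest of 1342, a median of 1584 and a highest of 2121 CPM. Within each stratum the groups did not overlap. The additive model gave 1.83-fold (log2 0.87 ± 0.10, edgeR adjusted p 2.35e-06), with 0.75 ± 0.14 without silica and 0.96 ± 0.13 with it. Chia and Lpo were among the values known when silica 1 and smoke 1 were left out, so their tests are not independent of that choice. With all 24 libraries Chia was at 1.25 ± 0.25 (edgeR adjusted p 0.0104). Lpo, the airway lactoperoxidase, was at 0 to 0.207 CPM in air and 0 to 1.49 CPM in smoke, near or below the worth of 3 counts, and at 35.6 to 60.5 CPM in silica and 62 to 92.8 CPM in combined. Its call (log2 0.75 ± 0.16, edgeR adjusted p 0.028) had a difference of 0.70 ± 0.15 with silica, and ended without silica 2, silica 5, combined 3, combined 5 or combined 6, with an adjusted p of up to 0.116. With all 24 libraries it was at 1.54 ± 0.49 and not called (edgeR adjusted p 0.138). These were the 2 called of 13 tested airway secretory markers, beside 0.344% of all genes. The summed level of that list was 2555 to 3718 CPM in air, 3850 to 4276 in smoke, 4361 to 4887 in silica and 4375 to 6275 in combined. The part of airway cell number in these 2 results was not tested.

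Cd163, the haemoglobin scavenger receptor of macrophages, was the one called gene of 15 tested macrophage markers, beside 0.344% of all genes. It read 10.8, 7.43, 10.1 and 9.26 CPM in smoke 3 to 6, with 7.51 to 10.5 CPM (median 7.93) in combined, against 8.97, 16.1, 14.3, 24.4 and 19.1 CPM in silica 2 to 6 and 10.2 to 28.5 CPM (median 24.8) in air. All but air 6 (10.2 CPM) and silica 2 (8.97 CPM) of the libraries without smoke were above all those with it. The fall was 2.16-fold (log2 -1.11 ± 0.18, edgeR adjusted p 0.00165). The summed level of the macrophage list was 9652 to 22000 CPM in air, 15640 to 18670 in smoke, 28570 to 32620 in silica and 30190 to 37770 in combined, and 9 of its 15 tested members had a positive sign.

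Npr3, the clearance receptor for natriuretic peptides, fell 2.01-fold (log2 -1.01 ± 0.15, edgeR adjusted p 0.000313). It was at 104 to 214 CPM in smoke and 49.6 to 89.2 CPM in combined, against 198 to 396 CPM in air and 114 to 231 CPM in silica. Only the silica stratum was without overlap. Adamts9, a secreted protease that cleaves proteoglycans of the matrix, fell 1.74-fold (log2 -0.80 ± 0.13, edgeR adjusted p 0.00157), with no overlap in either stratum, although its 243 CPM in air 6 stood far above the rest of air. It was the one called member of 9 tested ADAMTS genes, beside 0.344% of all genes. Adm, the vasodilator peptide adrenomedullin, and P4ha1, a collagen prolyl hydroxylase, were the called 2 of 11 hypoxia genes, beside 0.344% of all genes. They were 1.71-fold (log2 -0.77 ± 0.17, edgeR adjusted p 0.0379) and 1.24-fold (log2 -0.30 ± 0.06, edgeR adjusted p 0.018) lower. The call of P4ha1 ended without silica 5, smoke 4 or smoke 5, with an adjusted p of up to 0.0629. The call of Adm held in 8 of 21 leave-one-out fits, with an adjusted p of up to 0.0958.

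Fmo2, the flavin monooxygenase most abundant in lung, fell 1.49-fold (log2 -0.58 ± 0.11, edgeR adjusted p 0.0152), at 375 to 541 CPM in combined against 667 to 886 CPM in silica and at 739.5 to 943 CPM in smoke against 496 to 1312 CPM in air. In air 6 it had 496 CPM, and the next lowest air library 1125. Acer2, an alkaline ceramidase, fell 1.45-fold (log2 -0.54 ± 0.08, edgeR adjusted p 0.000283), and was also lower after silica. Of 14 tested P450 and FMO genes Fmo2 was the only one called, beside 0.344% of all genes. Cyp4b1, a lung P450, did not pass (-0.37 ± 0.10, adjusted p 0.107).

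**Figure D2:**
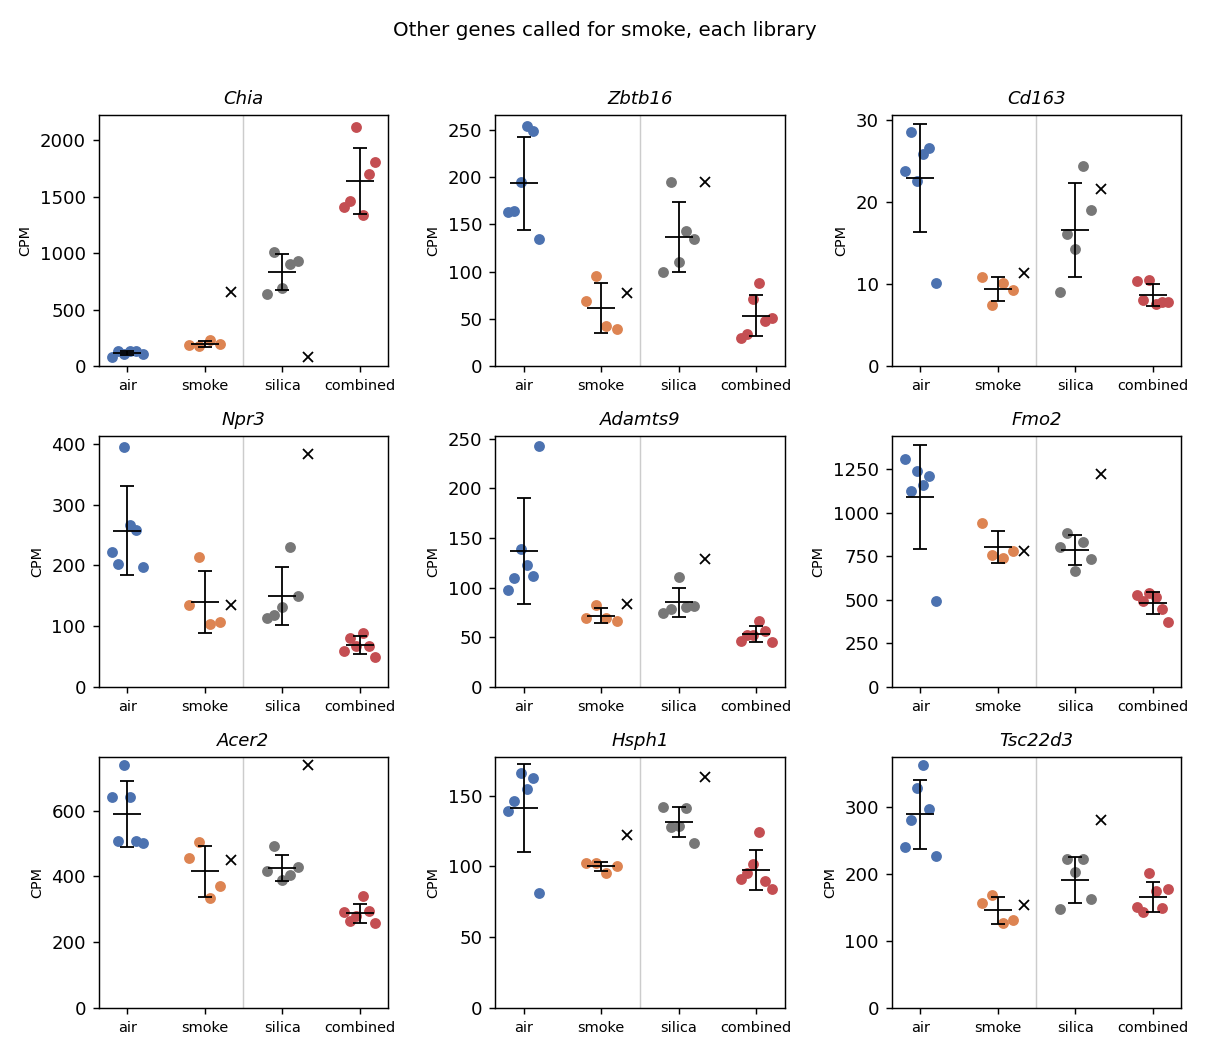
Normalised counts (CPM) of 9 further called genes in each library of the 21 (circles), with the mean and SD per group as black bars, and silica 1 and smoke 1 as crosses. Chia rises and Zbtb16 and Adamts9 fall with smoke in both strata without overlap, while Tsc22d3 separates in the air stratum and not in the silica stratum.

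The remaining called genes spanned signalling and metabolism. Pde3a and Pde7a, cyclic nucleotide phosphodiesterases, fell 1.34-fold (log2 -0.43 ± 0.07, edgeR adjusted p 0.00387) and 1.28-fold (log2 -0.36 ± 0.07, edgeR adjusted p 0.0171). Rapgef5, an exchange factor for Rap GTPases, fell 1.26-fold (log2 -0.33 ± 0.05, edgeR adjusted p 0.000283), with no overlap in either stratum. Eci2, an isomerase of fatty acid oxidation, fell 1.27-fold (log2 -0.34 ± 0.06, edgeR adjusted p 0.0104) and separated all 10 smoke libraries (39.5 to 48.1 CPM) from the 11 others (49.1 to 62.8 CPM). Ccdc102a, a coiled-coil gene, fell 1.61-fold (log2 -0.69 ± 0.10, edgeR adjusted p 0.000279), also without overlap in either stratum. Clspn, the checkpoint adaptor claspin, fell 1.86-fold (log2 -0.89 ± 0.19), Fibin 1.58-fold (log2 -0.66 ± 0.12) and Apol11a 1.43-fold (log2 -0.52 ± 0.11), with edgeR adjusted p of 0.0251, 0.00645 and 0.0193. The call of Clspn ended without silica 5, silica 6, smoke 3, smoke 5 or smoke 6, with an adjusted p of up to 0.0817. That of Pde7a ended without silica 5 (adjusted p 0.0542). The others called lower, Kcnj15, Uap1, Ppap2a, Rgs12 and Smarca2, differed 1.19-fold to 1.32-fold, and each lost its call without some libraries.

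Among higher genes, Scamp5, a secretory vesicle protein, followed Nr1d1 and Dbp in fold (2.67-fold, log2 1.42 ± 0.31, edgeR adjusted p 0.0283) but was near the detection limit, at 0 to 4.32 CPM without smoke and 2.24 to 5.63 CPM with it. Its call ended without silica 2, silica 5, smoke 4, smoke 5 or smoke 6, with an adjusted p of up to 0.0834. Mylk2, a myosin light chain kinase, was 1.73-fold higher (log2 0.79 ± 0.18, edgeR adjusted p 0.0422), with a call in 8 of 21 leave-one-out fits and an adjusted p of up to 0.115. Its log2 difference was 0.33 ± 0.29 without silica and 1.03 ± 0.21 with it. Fgr, a Src-family kinase of myeloid cells, and Plcb2, a phospholipase C of blood cells, rose 1.26-fold (log2 0.33 ± 0.07, edgeR adjusted p 0.0161) and 1.36-fold (log2 0.44 ± 0.10, edgeR adjusted p 0.0382). Slc9a3r1, a scaffold for epithelial transporters, and Dag1, dystroglycan, were 1.24-fold and 1.18-fold higher. Fgr kept its call in all 21 leave-one-out fits, Plcb2 in 9, Slc9a3r1 in 6 and Dag1 in 12, with adjusted p of up to 0.1, 0.119 and 0.077 for these last 3. The largest estimate of all, Rn45s, the ribosomal RNA precursor (log2 4.84 ± 1.00, edgeR adjusted p 0.0215), came from smoke 3 alone, which had 2059 CPM while every other library of the 21 had at most 55.3. Without smoke 3 it was 0.81, with an adjusted p of 0.621, and its call also ended without air 1, air 3 or air 4.

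**Figure D3:**
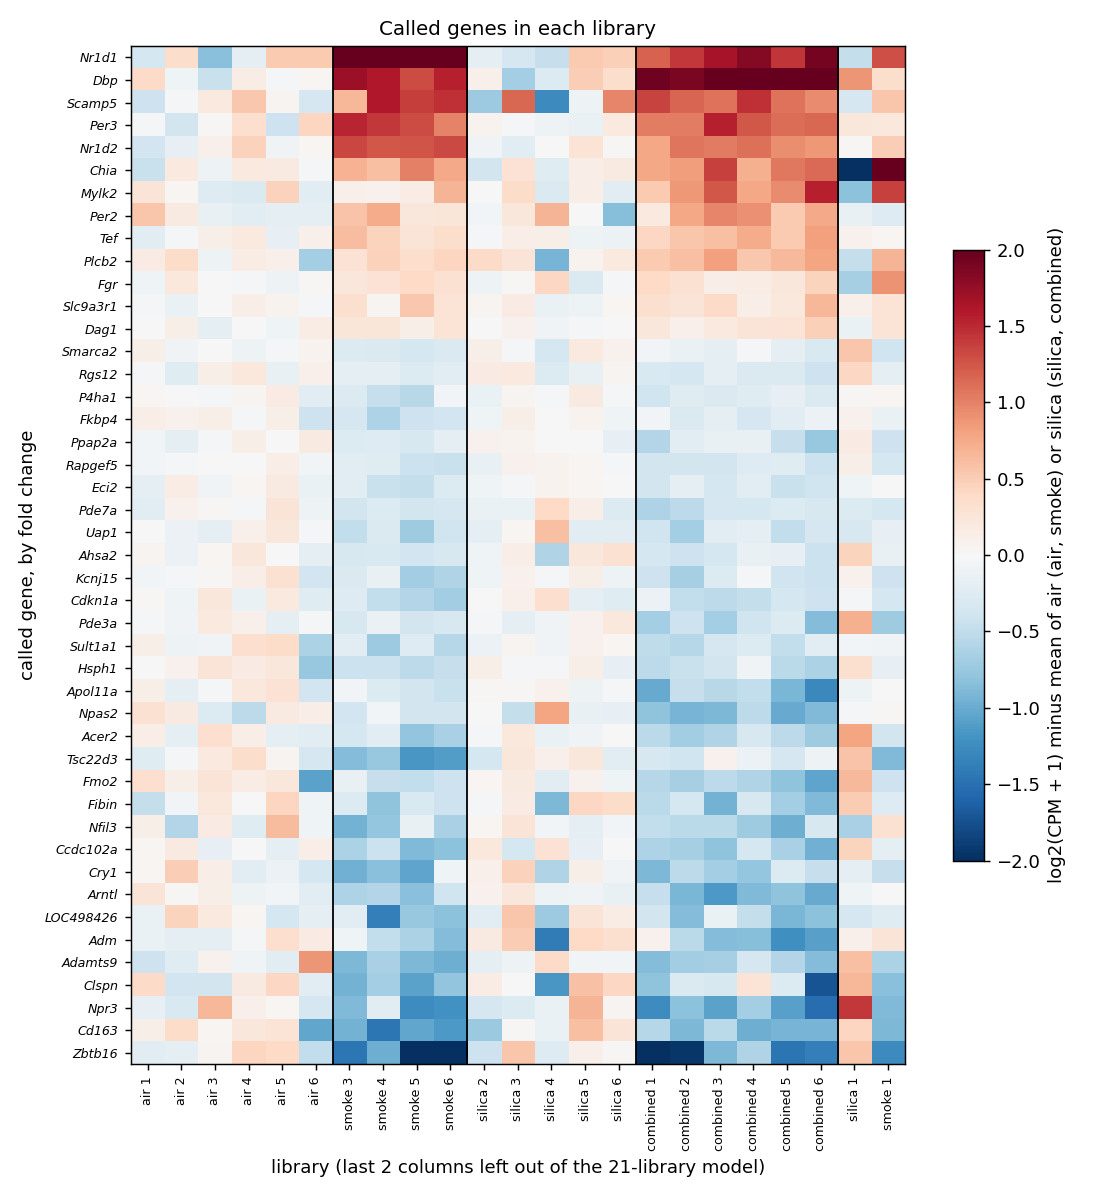
Each row is a called gene (all but Rn45s and Lpo) and each column a library; colour is log2(CPM + 1) minus the mean of air (air and smoke libraries) or of silica (silica and combined libraries). The blocks of smoke and combined columns share their colours over most rows, as the choice of genes by the joint model favours. Smoke 1, the last column, is pale for Dbp, Per3, Tef and Arntl.

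The 2 strata share no library, so each gives its own answer. Tested alone, smoke against air called 8 of 13268 genes (0.0603%): Nr1d1, Nr1d2, Dbp, Per3, Chia, Zbtb16, Tsc22d3 and Prdm1. Combined against silica called 107 of 12693 (0.843%). Of the 8 genes, 7 (87.5%) had the same sign in the silica stratum and 6 (75%) were called there. Of the 103 silica-stratum genes tested in both, 76 (73.8%) had the same sign without silica and 28 (27.2%) also had an unadjusted p under 0.05 there, beside 50.7% and 4.25% of all 12574 genes; 6 were called in both. The 6 were Nr1d1, Nr1d2, Dbp, Per3, Chia and Zbtb16. Over all these genes, which are not independent replicates, the log2 differences of the 2 strata had a Pearson r of 0.0531 and a Spearman rho of 0.0251.

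Some calls of the silica stratum had a small or opposite difference without silica. Retnla, a resistin-like protein of alternatively activated macrophages and epithelium, was at log2 0.95 ± 0.12 there (edgeR adjusted p 3.93e-05) and -0.79 in the air stratum (unadjusted p 0.188), with an interaction at an unadjusted p of 0.00208 and an adjusted p of 0.263. Bpifb1, an airway secretory protein, was at 0.77 ± 0.13 (edgeR adjusted p 0.00119) and -1.09 (unadjusted p 0.299), with an interaction at an unadjusted p of 0.0327 and an adjusted p of 0.513. Spp1, osteopontin, and Cfi, complement factor I, passed in the silica stratum, with edgeR adjusted p of 0.00509 and 0.00113, and not in the additive model, where they were at 0.87 ± 0.21 (adjusted p 0.0668) and 0.64 ± 0.15 (adjusted p 0.0651). The chemokine Ccl2 was at 0.64 ± 0.17 (adjusted p 0.0953) in the additive model. Its difference had the same sign in both strata, at 0.55 with silica and 1.06 without it (edgeR unadjusted p 0.0415 in the air stratum).

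**Figure D4:**
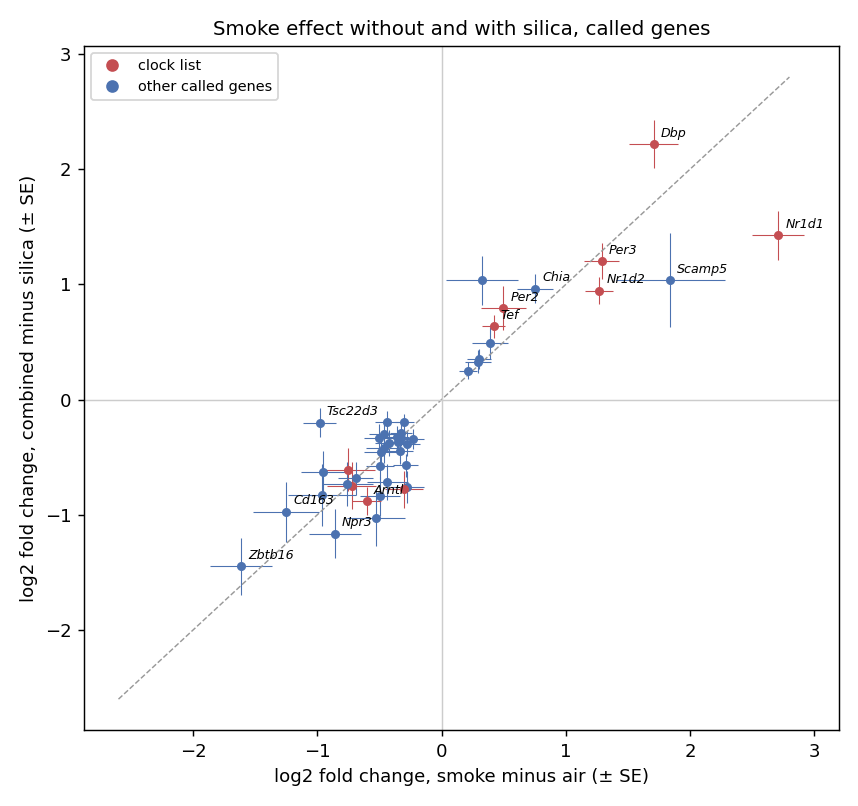
Log2 difference of combined minus silica against that of smoke minus air, each ± SE, for the called genes other than Rn45s and Lpo; clock list genes are red and the dashed line marks equal differences. All points lie in the quadrants of equal sign, as the choice of genes by the joint model favours; Nr1d1 and Tsc22d3 lie farther out on the smoke minus air axis.

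A test of the interaction, the difference between the 2 smoke effects, called 0 of 13666 genes (0%) in edgeR, with a smallest adjusted p of 0.0734 and 1205 genes at an unadjusted p under 0.05. DESeq2 called 21, limma voom 0 and voom with quality weights 47. Without air 6 edgeR called 19. The 5 genes with the smallest p had differences of opposite sign in the 2 strata. Prdm1, the repressor BLIMP-1, was at 0.65 ± 0.12 for smoke minus air and -0.31 ± 0.13 for combined minus silica (unadjusted p 1.16e-05). It read 38.5, 37.1, 43.8 and 41.7 CPM in smoke 3 to 6 against 22.3 to 29.1 CPM in air, and 19.8 to 31 CPM in combined against 24.7 to 36.7 CPM in silica. Zc3h12a, an RNase that degrades cytokine transcripts, had the same pattern (0.79 ± 0.17 and -0.35 ± 0.15), as had Gnao1, a G protein subunit (0.42 ± 0.13 and -0.54 ± 0.14). Gsdmd, the pore-forming gasdermin D, and Rnaset2, a lysosomal RNase, went the other way, -0.42 ± 0.10 and 0.31 ± 0.10 for Gsdmd and -0.42 ± 0.12 and 0.43 ± 0.11 for Rnaset2. Of the 47 called genes 6 had an interaction p under 0.05 before adjustment, Nr1d1, Tsc22d3, Rn45s, Lpo, Npas2 and Apol11a.

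Silica itself, from the same model, had 1744 genes higher and 2048 lower of 13666 tested, so silica calls were common among all genes. Of the 47 smoke genes 18 were also called for silica, a count to be read against that background. Of the 18, 5 were higher and 11 lower for both exposures, and 2 differed in direction, Rn45s and Nfil3. How often the directions agreed over all genes was not counted, so no result is drawn from this agreement. The 2 coefficients share their libraries, so they are given side by side only. Chia was at 2.98 ± 0.10 for silica and 0.87 ± 0.10 for smoke, Npr3 at -0.88 ± 0.15 and -1.01 ± 0.15, Fmo2 at -0.59 ± 0.11 and -0.58 ± 0.11. Of the 10 clock genes only Nfil3 had a silica call, at 0.47 ± 0.14, and Nr1d1 was at -0.03 ± 0.19 and Dbp at 0.19 ± 0.15 for silica.

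Several gene groups often examined after smoke had no called member in the additive model, where 0.344% of all genes were called, so a count of 0 in lists of this size is no result about them. The aryl hydrocarbon receptor, which senses polycyclic aromatic compounds of smoke, had 0 called of 8 tested targets, with a median of 0.21. Cyp1b1 was at 0.27 ± 0.25 (adjusted p 0.799), and Cyp1a1 did not reach the count needed for testing. None of 28 antioxidant targets of NRF2 passed (median 0.06), with Nqo1 at 0.19 ± 0.12 (adjusted p 0.664). The same held for 18 cytokines and chemokines (median -0.01), 22 complement and acute phase genes (median 0.20), 31 matrix genes (median -0.09) and 10 neutrophil markers (median 0.19). Of 27 genes of lipid-laden macrophages and lysosomes 0 passed, and 25 had a positive sign, beside 49.7% of all genes (median 0.13). The cold-inducible Rbm3 was at 0.20 ± 0.06 (adjusted p 0.123). In all, 17 of the 26 pathway lists and 20 of the 22 cell type lists had no called member. Counting each gene once, 21 of 389 tested pathway members (5.4%) and 3 of 192 tested cell type markers (1.56%) were called, beside 0.344% of all genes. A member that misses the threshold is not shown to be unchanged, and the SE of the called genes had a median of 0.0995.

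Some of these lists did have calls when combined was tested against silica alone, where 0.843% of all genes were called. Of the 27 lipid-laden macrophage and lysosome genes 7 were higher there: Spp1, the fatty acid binding proteins Fabp4 (0.70, edgeR adjusted p 0.0121) and Fabp5, the membrane glycoprotein Gpnmb (0.38, edgeR adjusted p 0.0172), the cathepsins Ctsd and Ctsk, and Lgals3, galectin 3. Complement and acute phase genes had 6 higher, namely Cfi, Cfb, C3, C1qc, Hp and Orm1, with Cfb, complement factor B, at 0.43, edgeR adjusted p 0.0173. Of the chemokines, Ccl2 was higher (0.55, edgeR adjusted p 0.0387), and the neutrophil attractants Cxcl1 (-1.02, edgeR adjusted p 4.72e-05) and Cxcl6 (-0.86, edgeR adjusted p 0.00116) were lower. The aryl hydrocarbon receptor, NRF2, matrix and neutrophil lists had 0 calls in that test too. Smoke against air called 0 members of any of these 7 lists. Only 0.0603% of all genes were called there, so this 0 shows no contrast between the strata.

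**Figure D5:**
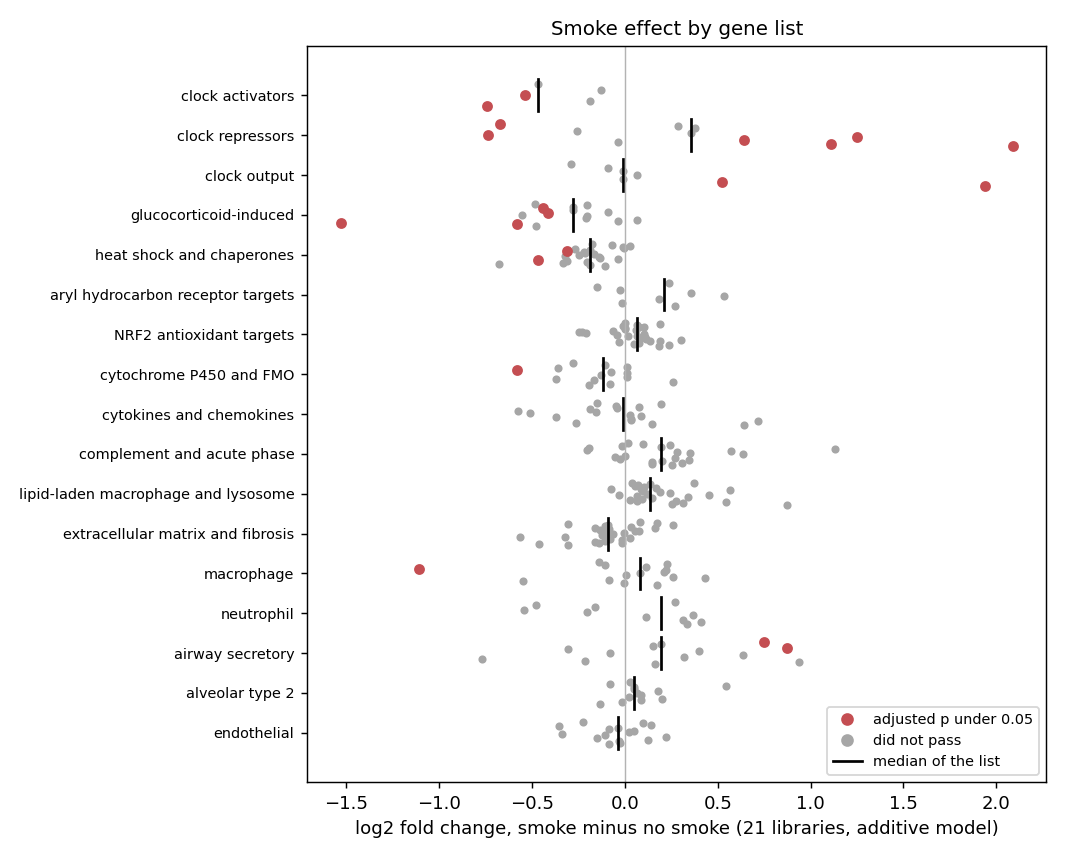
Log2 difference of smoke minus no smoke in the additive model for the tested members of 17 gene lists; red points passed an adjusted p of 0.05 and black ticks are list medians. The clock lists hold 10 red points on both sides of 0, while the 4 in the glucocorticoid list and the 2 in the chaperone list are all negative.

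Cell type markers show the tissue and its make-up. Lung markers were abundant in all 21 libraries: the 13 measured alveolar type 2 genes summed to 15530 to 24480 CPM in air, 17430 to 20060 in smoke, 26410 to 29390 in silica and 28120 to 33040 in combined. Sftpc, surfactant protein C, was at -0.13 ± 0.09 (adjusted p 0.648) for smoke. The endothelial list had 0 called of 16, with Cldn5, a tight junction protein, at -0.34 ± 0.08 (adjusted p 0.0755), and Nkx2-1, the lung epithelial transcription factor, was at 0.54 ± 0.14 (adjusted p 0.0888). Both were called with all 24 libraries, at -0.39 (edgeR adjusted p 0.0461) and 0.61 (edgeR adjusted p 0.0231).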

How the data were processed

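RNA-seq counts per gene from lungs of 24 rats were used, in 4 groups of 6. Listed, per the submitters' processing notes, are HISAT2 2.1.0, HTSeq 0.11.2, Trimmomatic 0.35, Cufflinks, bcl2fastq 2.19 and SAMtools 1.8; their roles, the genome build and the strand setting were not given in the labels or notes at hand. The authors deposited raw counts per gene with symbols and NCBI identifiers. Of 30069 lines, 26 repeated symbols were removed. Libraries were stranded, total RNA. The labels used here name no batch or date.

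Genes were kept by filterByExpr over the 4 groups (minimum count 10), counts were scaled by TMM, and smoke was tested in an additive model with silica by edgeR 4.0.16 (glmQLFit, glmQLFTest; R 4.3.3), two-sided, with Benjamini-Hochberg adjustment at 0.05 over all genes tested. SE is the log2 difference divided by the square root of F. The interaction and per-stratum differences came from a model with the product term, and each stratum was also fitted alone. Of 21 libraries, the lowest total was 280484 counts, the next 1084815 and the median 2456499, so 3 counts are worth 10.7 CPM in silica 4. PCR duplicates were not marked by molecular identifiers. P-values of the additive model set the smoke difference against the spread of rats around that model. This spread includes any difference of the smoke effect between the strata. In the interaction model and the single-stratum fits it is the spread between rats within groups. The labels used here do not say which rats shared a cage or chamber, and the model holds no term for either. Effects of cage or chamber were not tested. DESeq2 1.42.0, limma 3.58.1 (voom), sva 3.50.0, other scalings and filters, and leaving out each library were alternatives. The scripts were tested on simulated data. The closest pair of libraries of 1 group, combined 4 and 5, differed by more than sampling noise (chi-square per degree of freedom 1.73).

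The comparison, the 3 left-out libraries and the 48 gene lists (682 members, 572 tested) were chosen with earlier results of these data known. Genes were named by rule: the 12 largest rises and falls with 1 sign in both strata and a mean of at least 2 CPM, the 8 smallest p in each direction, up to 6 called and the 2 most abundant uncalled members of a list, the 5 smallest interaction p, and always Nr1d1, Dbp, Per3, Arntl, Zbtb16, Tsc22d3, Cyp1a1, Cyp1b1, Nqo1 and Sftpc. Some genes that the rule picks, such as Nfkbia, are not described. Named outside it, after their values were seen, were the other called genes and Cry2, Ciart, Fkbp5, Sgk1, Hspa8, Dnaja1, Hspb1, Rbm3, Spp1, Cfi, Ccl2, Cldn5, Nkx2-1, Retnla, Bpifb1 and the silica-stratum calls. Promoter windows came from RefSeq (GRCr8), figures from matplotlib 3.10.9.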

Additional observations from a re-analysis of the deposited data

Results flagged for a closer look

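Of 188 sets of values (47 called genes in 4 groups), 18 held a library whose gap to its nearest neighbour, as a share of the range of the group, passed Dixon's 95% limit, which chance passes in about 1 in 20 sets. Air 6 accounted for 6 and silica 4, the shallowest of the 21, for 4.

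In air 6 the gaps were as follows. Lpo was the highest of its group in air 6, at 0.207 CPM with the nearest at 0 CPM, a gap of 1 of the range. That level is below the 0.64 CPM that 3 counts are worth in air 6 before the TMM adjustment. A gap of 1 follows whenever a single library of a group has any counts. Fkbp4 was the lowest of its group in air 6, at 99.9 CPM with the nearest at 129.6 CPM, a gap of 0.633 of the range. Hsph1 was the lowest of its group in air 6, at 81.3 CPM with the nearest at 139 CPM, a gap of 0.682 of the range. Fmo2 was the lowest of its group in air 6, at 496 CPM with the nearest at 1125 CPM, a gap of 0.771 of the range. Adamts9 was the highest of its group in air 6, at 243 CPM with the nearest at 138 CPM, a gap of 0.716 of the range. Cd163 was the lowest of its group in air 6, at 10.2 CPM with the nearest at 22.6 CPM, a gap of 0.677 of the range.

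Silica 4 stood apart in 4 genes. Uap1 was the highest of its group in silica 4, at 110.5 CPM with the nearest at 74.7 CPM, a gap of 0.735 of the range. Npas2 was the highest of its group in silica 4, at 99.8 CPM with the nearest at 57 CPM, a gap of 0.725 of the range. Adm was the lowest of its group in silica 4, at 3.56 CPM with the nearest at 12.6 CPM, a gap of 0.72 of the range. That level is below the 10.7 CPM that 3 counts are worth in silica 4. Adamts9 was the highest of its group in silica 4, at 110.5 CPM with the nearest at 81.3 CPM, a gap of 0.81 of the range.

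The other 8 sets each involved a different library. Rn45s was the highest of its group in smoke 3, at 2059 CPM with the nearest at 14.4 CPM, a gap of 0.997 of the range. Per3 was the highest of its group in combined 3, at 80.8 CPM with the nearest at 64.8 CPM, a gap of 0.638 of the range. Mylk2 was the highest of its group in smoke 6, at 6.69 CPM with the nearest at 4.31 CPM, a gap of 0.913 of the range. Fgr was the highest of its group in air 2, at 60 CPM with the nearest at 52.5 CPM, a gap of 0.638 of the range. Rapgef5 was the highest of its group in air 5, at 261 CPM with the nearest at 241 CPM, a gap of 0.653 of the range. Npas2 was the highest of its group in smoke 4, at 50.5 CPM with the nearest at 40.2 CPM, a gap of 0.945 of the range. Npas2 was the highest of its group in combined 4, at 39.4 CPM with the nearest at 32.1 CPM, a gap of 0.643 of the range. Npr3 was the highest of its group in air 3, at 396 CPM with the nearest at 267 CPM, a gap of 0.65 of the range. Of the 18, the calls of Rn45s (without smoke 3) and Mylk2 (without smoke 6) ended when the library concerned was left out.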

How the results depend on the processing

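All 47 called genes kept their direction under each of the 14 other settings and 21 leave-one-out fits in which they were tested; 24 were called in every leave-one-out fit and 10 also under every other setting that gave an adjusted p. The counts moved more. Beside 15 higher and 32 lower, all 24 libraries gave 35 and 61, 23 libraries (without smoke 2) 51 and 80, DESeq2 38 and 60, voom with quality weights 39 and 65, a model without the silica term 6 and 20, and a test against a fold of 1.2 gave 5 and 6. Leaving out 1 library gave 10 to 42 higher and 19 to 80 lower, both highest without air 6. Without air 6 and silica 4, an alternative chosen after seeing the data, there were 39 and 86. The interaction had 21 calls in DESeq2, 47 in voom with quality weights and 0 to 19 when 1 library was left out. Smoke against air had 5 calls with every library and 3 (without smoke 3) to 89 (without air 6) in the leave-one-out fits. Combined against silica had 49 (without silica 6) to 196 (without combined 4). With 24 libraries, 182 genes were called by voom with quality weights and 199 by DESeq2, beside 96, both added after seeing the data. Per1, not called, ranged from -0.13 to 0.07 in the leave-one-out fits and from -0.21 to -0.02 under the other settings, and changed sign without air 5 (0.00062), smoke 3 (0.0016), smoke 5 (0.066), smoke 6 (0.013) or combined 2 (0.012). The causes of these shifts were not tested. No paired analysis was possible because replicate numbers were given in accession order and no label pairs the rats. Low depth limits silica 4 and, with 21629 counts, smoke 2.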
